A study of Canis lupus familiaris with 22 samples.

Results

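The genes described here changed between macula and periphery in opposite directions in 2 adjoining tissues of the same dogs, the retina and the pigmented epithelium with choroid behind it (RPE/choroid). They were chosen by the regional differences themselves. For each dog, the difference d was the log2 of (macular CPM + 0.5) over (peripheral CPM + 0.5), where CPM is a gene's count scaled to a library total of 1000000. A gene passed where all 4 retina differences were at least 0.2 and all 4 RPE/choroid differences were at most -0.2, or the reverse, and where its mean CPM was at least 2 in the 8 libraries of each tissue. Of 30951 gene identifiers, 13009 met the CPM condition and 239 passed, and the 200 with the largest smallest absolute d were kept. In 146 of the 200, the macula was higher in retina and lower in RPE/choroid (called retina-up genes below). In the other 54, the macula was lower in retina and higher in RPE/choroid (retina-down genes). The regional differences are therefore given as a description, without a test.

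The retina is the neural tissue that holds the photoreceptors and the neurons that process their signals. The RPE is the pigmented cell layer behind it, which renews visual pigment, takes up shed photoreceptor tips and transports nutrients from the choroid, the vascular and pigmented layer beneath. The macula is the central region that serves sharp vision, and dogs have a central area of densely packed photoreceptors without the pit of the human fovea. A bulk library of RPE/choroid holds epithelium, vessels, stroma, pigment cells and immune cells, so fewer cells of a type and less RNA per cell cannot be told apart.

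RNA was sequenced from mixed-breed dogs with no treatment named in the labels. In the first set, dogs 18-2 (male, pitbull mix, estimated age 2 to 3 years), 18-6 (male, mastiff mix, 3 to 5 years), 18-7 (female, pitbull mix, 3 to 5 years) and 18-9 (female, boxer mix, 2 to 3 years) each gave 4 libraries from 1 eye, 1 of each tissue from macula and periphery. The left eye was used in both males and the right eye in both females, so sex and side cannot be told apart. In the second set, dogs 1 (female, labrador/pitbull mix, 3 to 5 years), 2 (male, pitbull mix, 2 to 3 years) and 3 (male, pitbull mix, 3 to 4 years) each gave macular RPE/choroid of the right eye, sampled with the retina on, and of the left eye, sampled with the retina off. Side and retina on or off therefore cannot be told apart in this set. Its 6 libraries took no part in the choice of genes. Total counts ran from 2690847 (peripheral RPE/choroid of dog 18-6) to 7845325 (retina-off RPE/choroid of dog 3). The files give Ensembl identifiers without names, and 0 of 30951 matched a symbol in the reference table used here. The 2 identifiers with the largest smallest absolute d in each direction are named, the others are described by counts and ranges, and gene functions, cell type markers and sequences were not analysed here.

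Before the cap, 173 genes passed in the retina-up direction, which is 1.33% of the 13009, and 66 in the retina-down direction, or 0.507%. The same limits for equal directions were passed by 183 genes higher in the macula of both tissues (1.41%) and by 35 lower in both (0.269%). Opposite and equal regional directions were thus about as frequent under this rule. Leaving out 1 dog raised both counts, since fewer differences then had to pass. Retina-down genes numbered 154, 86, 144 and 102 without dogs 18-2, 18-6, 18-7 and 18-9. Retina-up genes numbered 244, 224, 254 and 190, in the same order. The cap set the actual limit. The last retina-up genes kept had a smallest absolute d of 0.2313 and 0.2312, and the next ones outside had 0.2306 and 0.2280. For retina-down genes the values were 0.2346 and 0.2324 inside and 0.2293 and 0.2273 outside.

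**Figure D1:**
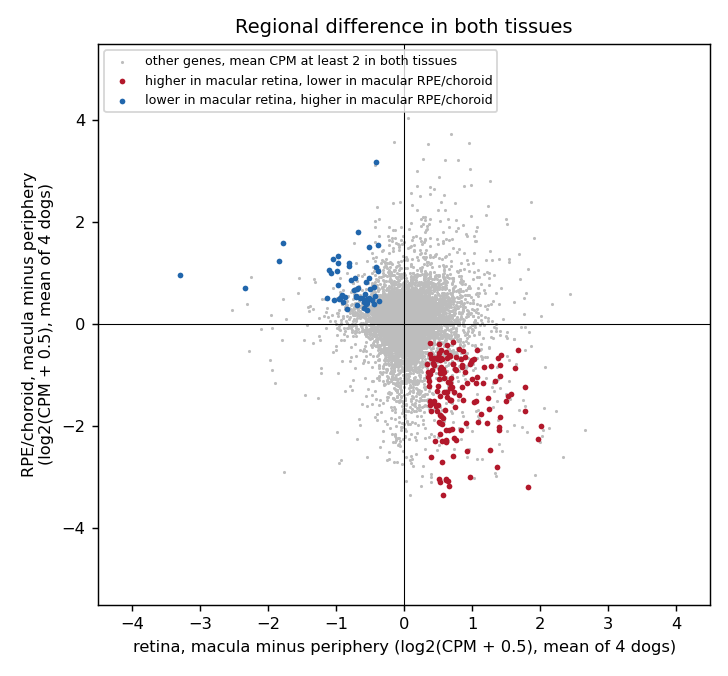
Regional difference of each gene in retina (x axis) and RPE/choroid (y axis), as the mean over 4 dogs of the log2(CPM + 0.5) difference between macula and periphery. Red points are the 146 retina-up genes, which reach down to -3.35 in RPE/choroid, blue points the 54 retina-down genes, and grey points the other genes with a mean CPM of at least 2 in both tissues.

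ENSCAFG00000016480 had the largest smallest difference of all members, 1.48. In macular retina it had 49.9, 80.5, 71.6 and 72.2 CPM in dogs 18-2, 18-6, 18-7 and 18-9, and in peripheral retina 10.7, 22.3, 20.2 and 25.6 CPM. In macular RPE/choroid it had 2.25, 0, 6.35 and 0.568 CPM, and in peripheral RPE/choroid 19.0, 4.46, 26.9 and 26.4 CPM. The 0 in dog 18-6 allows up to 0.656 CPM, the value of 3 counts in that library, as far as counting error goes. Macular and peripheral levels did not overlap in retina, and overlapped in RPE/choroid only through the low peripheral value of dog 18-6. The mean difference was 1.82 ± 0.28 in retina and -3.20 ± 1.11 in RPE/choroid (SD, n = 4 dogs). The latter depended on the constant added to the CPM, and was -3.98 with 0.1 and -2.31 with 2 in place of 0.5. Peripheral retina and peripheral RPE/choroid lay side by side, at 19.7 ± 6.41 and 19.2 ± 10.4 CPM (SD, n = 4 each), whereas macular retina (68.6 ± 13.1 CPM) and macular RPE/choroid (2.29 ± 2.87 CPM) lay far apart. In the second set of dogs its macular RPE/choroid level was also low, from 0.229 to 0.703 CPM with the retina on and from 0.255 to 4.73 CPM with the retina off.

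ENSCAFG00000001710, the next retina-up gene, had 21.7, 16.5, 26.9 and 19.0 CPM in macular retina and 4.64, 7.93, 12.1 and 6.78 CPM in peripheral retina, in the same order of dogs. Its macular RPE/choroid values were 2.89, 1.53, 4.48 and 4.54 CPM, and the peripheral ones 5.71, 4.09, 11.1 and 8.07 CPM. Every macular retina value lay above every peripheral one, while the RPE/choroid values of different dogs overlapped and the order held within each dog. The mean differences were 1.42 ± 0.49 in retina and -1.01 ± 0.22 in RPE/choroid (SD, n = 4 dogs), the latter -0.77 with an added constant of 2. This gene, too, was nearly level between the tissues in the periphery, at 7.85 ± 3.12 CPM in retina and 7.23 ± 3.03 CPM in RPE/choroid (SD, n = 4 each).

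ENSCAFG00000002204 led the retina-down genes. It had 7.37, 2.06, 7.13 and 2.25 CPM in macular retina and 15.9, 11.8, 24.8 and 10.9 CPM in peripheral retina. Macular RPE/choroid had 28.3, 23.4, 16.03 and 26.3 CPM, and peripheral RPE/choroid 8.35, 3.72, 7.32 and 11.9 CPM. The regional groups did not overlap in either tissue. The mean differences were -1.78 ± 0.53 in retina and 1.60 ± 0.67 in RPE/choroid (SD, n = 4 dogs). In this gene the tissue with the higher mean changed with the region, from RPE/choroid in the macula (23.5 ± 5.37 against 4.70 ± 2.94 CPM) to retina in the periphery (15.8 ± 6.33 against 7.82 ± 3.36 CPM, SD, n = 4 each). Dog 18-9 was the exception in the periphery, with the retina at 10.9 and RPE/choroid at 11.9 CPM.

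ENSCAFG00000015475 combined a steep retinal gradient with a high level in RPE/choroid. Its macular retina values were 2.36, 4.94, 1.06 and 2.25 CPM and its peripheral retina values 46.2, 31.9, 20.7 and 18.4 CPM. In RPE/choroid it had macular values of 204.7, 341, 197 and 207 CPM against peripheral values of 111, 175, 104 and 93.8 CPM. Again neither tissue had overlapping regional groups. The differences averaged -3.29 ± 0.72 in retina, the largest retinal difference among the retina-down genes, and 0.98 ± 0.11 in RPE/choroid (SD, n = 4 dogs). Its level in the second set was 278 to 364 CPM with the retina on and 194 to 374 CPM with the retina off.

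**Figure D2:**
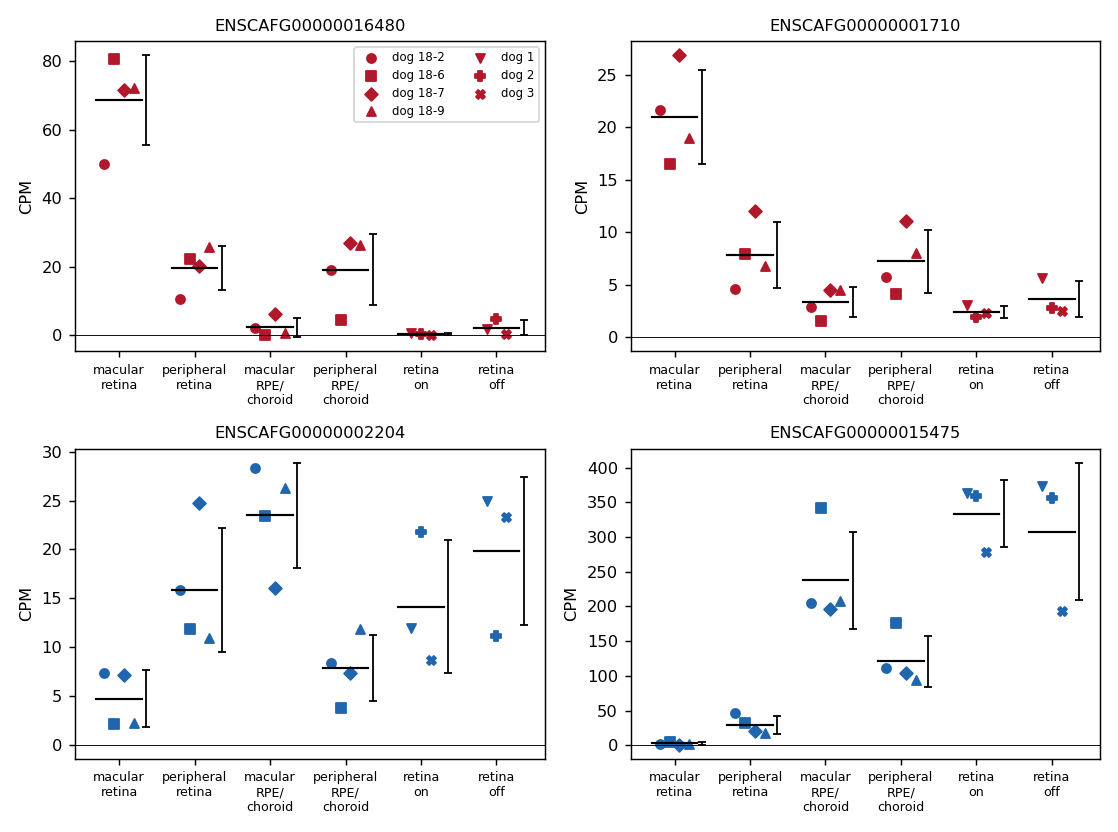
CPM of the 4 named genes in every library, with 1 marker per dog, the group mean as a horizontal line and the SD as an error bar. The upper genes are high in macular retina and low in macular RPE/choroid, and the lower genes are low in macular retina, where ENSCAFG00000015475 stays at or below 4.94 CPM.

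Among the members, the 2 directions differed in how their differences were divided between the tissues. For retina-up genes the mean difference over dogs had a median of 0.67 in retina (0.33 to 2.01) and of -1.23 in RPE/choroid (-3.35 to -0.35). The RPE/choroid difference was the larger one in 110 of the 146, and 91 had at least a 2-fold difference in RPE/choroid against 35 in retina, with 25 in both. For retina-down genes the medians were -0.69 in retina (-3.29 to -0.36) and 0.68 in RPE/choroid (0.27 to 3.18), and the RPE/choroid difference was larger in 25 of 54. At least 2-fold were 15 of these in RPE/choroid and 9 in retina, with 4 in both. Shares over all genes were not computed for these counts, so they describe the members only. Over all 13009 genes, the quartiles in dog 18-6 were -0.19 and 0.44 in RPE/choroid against -0.14 and 0.16 in retina. In dog 18-2 they were -0.21 and 0.24 against -0.24 and 0.21. The Pearson correlation over genes between the mean differences of both tissues was -0.08 for the 146 retina-up and -0.10 for the 54 retina-down genes, and -0.09 over all 13009 genes. These values share their 4 dogs, and the rule used them.

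Regional groups that did not overlap over dogs were found in retina for 115 of 146 retina-up and 27 of 54 retina-down genes, where 13.6% of the 13009 genes had such groups. In RPE/choroid they were found for 31 and 37, also against 13.6%. The rule used these contrasts, so nothing is read from these shares. Depth limited part of the differences. The lowest count of a gene among 16 libraries had a median of 18.5 for retina-up and 40 for retina-down genes, and it was under 10 for 51 and 10 of them. All 8 differences exceeded the 95% counting interval in 72 retina-up and 23 retina-down genes, and at least 6 of 8 did so in 120 and 46. These are the differences that the rule used, and the share over all genes was not computed. The counts therefore describe depth only.

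In a few members every dog had the tissues in one order in the macula and in the other order in the periphery. Retina was above RPE/choroid in the macula and below it in the periphery for 8 retina-up genes, a pattern found in 0.369% of the 13009. The reverse switch held for 4 retina-down genes, against 0.738% of all. The other members had no such switch shared by all 4 dogs. The rule favoured the switch seen in each direction and worked against its reverse, so nothing is read from these shares. The median gap between the tissues was taken as retina minus RPE/choroid on the log2 scale. It went from 1.40 in the macula to -0.52 in the periphery for retina-up genes and from -2.77 to -1.25 for retina-down genes. The change in gap is the retina difference minus the RPE/choroid difference, so the rule fixed its sign and only its size is described.

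Among the members, the dogs differed most in the RPE/choroid differences of the retina-up genes. The SD over dogs had a median of 0.69 there and of 0.23 in retina, whereas for retina-down genes it was 0.22 in RPE/choroid and 0.23 in retina. The median retina difference of the retina-up genes was 0.77, 0.63, 0.59 and 0.62 in dogs 18-2, 18-6, 18-7 and 18-9. Their median RPE/choroid difference was -0.78 and -0.57 in dogs 18-2 and 18-7, but -1.66 and -1.67 in dogs 18-6 and 18-9. In 110 of the 146 genes, the largest of the 8 differences was the RPE/choroid difference of dog 18-6 (54 genes) or 18-9 (56 genes). Neither this count nor the SDs were computed over all genes, so they are not read as particular to the retina-up genes. Dogs 18-6 and 18-9 differ in sex, side, age range and named breed mix, while dogs 18-2 and 18-7 are both pitbull mixes. The part of these traits in the differences was not tested. For the retina-down genes the RPE/choroid medians were 0.63, 0.81, 0.48 and 0.70 and the retina medians -0.73, -0.72, -0.70 and -0.62, in the same order of dogs. The median over all 13009 genes lay between -0.05 and 0.01 in retina. In RPE/choroid it lay between -0.0004 and 0.04 in dogs 18-2, 18-7 and 18-9 and at 0.13 in dog 18-6, whose peripheral library was the shallowest.

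Part of the retina-up genes formed a steep block in these dogs. At least 4-fold lower in macular RPE/choroid in both dogs 18-6 and 18-9 were 51 of the 146, a grouping made after the values had been seen. Their median RPE/choroid differences were -3.25 and -3.38 in those dogs and only -0.82 and -0.48 in dogs 18-2 and 18-7. In retina the same 51 genes had medians of 0.83, 0.59, 0.56 and 0.71, close to those of the other 95 retina-up genes (0.72, 0.65, 0.64 and 0.59). Across the 146 genes, the RPE/choroid differences of dogs 18-6 and 18-9 had a Pearson correlation of 0.80. The correlation of dog 18-2 was 0.34 with dog 18-6, 0.56 with dog 18-7 and 0.45 with dog 18-9, and that of dog 18-7 was -0.03 with dog 18-6 and 0.15 with dog 18-9. Over all 13009 genes, the pair of dogs 18-6 and 18-9 had 0.82 and the other 5 pairs between 0.52 and 0.63. The member values are those that chose the genes.

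The 6 libraries of the second set, which the choice did not use, showed the same genes moving together between the fellow eyes of single dogs. In dog 2, the steep block was lower with the retina on by a median of -2.24 on the log2 scale, in 50 of 51 genes. In dog 3, it was higher with the retina on by a median of 1.51, in 48 of 51. In dog 1 the median was 0.23, with 39 of 51 higher. Over the 13009 genes the medians were 0.07, -0.07 and -0.02 in dogs 2, 3 and 1. With the retina on, 42.2% of these genes were lower and 57.8% higher in dog 2. In dogs 3 and 1, 45.6% and 45.7% were higher, and 54.4% and 54.2% lower. The other 95 retina-up genes had medians of -0.38, -0.07 and 0.02 in dogs 2, 3 and 1. The retina-down genes moved the opposite way to the steep block in each dog, with medians of 0.47 in dog 2 (52 of 54 higher with the retina on), -0.21 in dog 3 (42 of 54 lower) and -0.32 in dog 1 (50 of 54 lower).

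The behaviour of the steep block was shared with genes outside the set. Another 208 genes with a mean CPM of at least 2 in both tissues were at least 4-fold lower in macular RPE/choroid of dogs 18-6 and 18-9 without being members. Their retina-on minus retina-off medians were -1.85, 1.62 and 0.22 in dogs 2, 3 and 1, with 98.6% lower, 95.2% higher and 84.6% higher. Their median retina differences lay between -0.0039 and 0.30. Over all 13009 genes, the on minus off difference correlated with the mean RPE/choroid regional difference of the first set at 0.55 in dog 2, -0.44 in dog 3 and -0.27 in dog 1 (Pearson, across genes, from separate libraries). Total counts of the eyes with the retina on and off were 4138407 and 3592007 in dog 2 and 4368948 and 7845325 in dog 3. In dog 1 they were 4265684 and 4606622. By its median, the steep block was lower in the library with more counts in each dog. The sign of the on minus off shift differed between dogs sampled in the same way. The part of depth, sampling, side or cell makeup in these shifts was not tested, and sampling and side cannot be told apart.

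**Figure D3:**
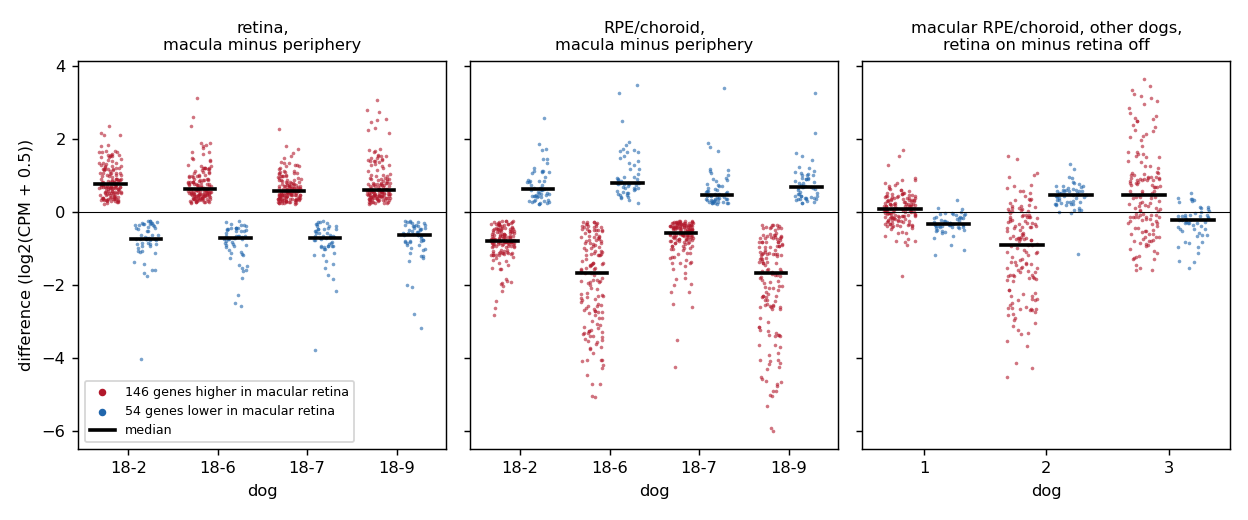
Differences of each retina-up gene (red) and retina-down gene (blue) by dog, on the log2(CPM + 0.5) scale, with the median as a black line. The left and middle panels show the differences that chose the genes, and the right panel shows the 3 other dogs, where red and blue medians lie on opposite sides of 0 in every dog and change sides between dogs 2 and 3.

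With dog as a block, edgeR's quasi-likelihood test of retina on against retina off called none of the 188 members with enough counts and none of 14076 genes (0.0% called, smallest adjusted p = 0.99987). An unadjusted p under 0.05 was found for 0 of the 188 members and for 84 of all genes in edgeR, and for 0 and 62 in DESeq2, which also called none. Without dog 2, edgeR called 83 of 14312 genes, among them 1 member, a retina-up gene (adjusted p = 0.0275, edgeR), and 53 of 188 members had an unadjusted p under 0.05, against 1819 of all genes (12.7%). Of these 53, 38 were higher with the retina on, against 727 of the 1819. The 38 were all among the 43 retina-up genes, and 0 of the 10 retina-down genes were higher.

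Against the levels of the first set, the second set lay nearer the macular than the peripheral mean for 106 of 146 retina-up genes (72.6%) and 31 of 54 retina-down genes (57.4%). For other genes that met only the RPE/choroid side of the rule, the shares were 66.6% of 706 and 56.6% of 1109. The sets are different dogs, so set and dog cannot be told apart, and the first-set levels had been used by the rule.

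How far the opposite directions extended to a dog that had no part in the choice was examined by choosing genes on 3 dogs and reading the fourth. The rule on the other 3 dogs chose 244, 224, 254 and 190 retina-up genes with dogs 18-2, 18-6, 18-7 and 18-9 held out. Both signs were kept in the held-out dog by 207 (84.8%), 193 (86.2%), 226 (89.0%) and 179 (94.2%) of them. Among all genes above the CPM limit, 16.9%, 22.0%, 26.0% and 22.6% had these signs in the same dogs. Of 154, 86, 144 and 102 retina-down genes chosen in this way, 110 (71.4%), 77 (89.5%), 111 (77.1%) and 81 (79.4%) kept both signs, against 22.9%, 33.6%, 26.6% and 31.8% of all genes. With TMM library sizes the share in dog 18-2 was 63.8%. In every held-out dog and both directions the chosen genes thus had the signs at least 2 times as often as genes at large. Fewer met the full limit of 0.2 in both tissues of the held-out dog. This was so for 72.1%, 77.7%, 67.3% and 88.9% of the retina-up genes, against 5.67%, 6.3%, 5.99% and 6.83% of all genes. Of the retina-down genes 42.9%, 75.6%, 45.1% and 62.7% did so, under 50% in dogs 18-2 and 18-7, against 5.9%, 11.0%, 3.68% and 6.41% of all genes. Reversal in both tissues was seen in 0 or 1 of the retina-up and 1 or 2 of the retina-down genes.

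The held-out sizes differed by dog in RPE/choroid. With dog 18-7 held out, its retina-up genes had a median of 0.51 in retina and -0.40 in RPE/choroid, where the 3 choosing dogs had 0.74 and -1.36. Dog 18-2 likewise had a smaller RPE/choroid median than its choosing dogs, -0.67 against -1.13, and dog 18-6 a larger one, -1.16 against -0.99. With dog 18-9 held out, the medians in that dog were 0.57 and -1.39, against 0.62 and -1.01 in the choosing dogs. For retina-down genes the held-out retina median, from -0.52 to -0.30, was smaller in size than that of the choosing dogs in each case (-0.61 to -0.52). In RPE/choroid it ran from 0.29 to 0.78, against 0.57 to 0.62, and only dog 18-6 exceeded its choosing dogs. In dog 18-2, where the fewest retina-down genes kept both signs, the retina sign was kept by 118 of 154 and the RPE/choroid sign by 145.

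**Figure D4:**
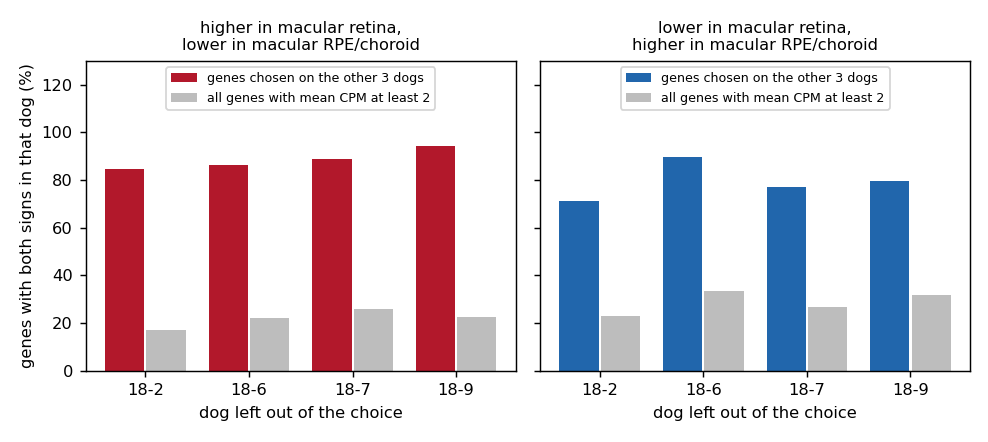
Share of genes with both regional signs in a dog that was left out of the choice, for genes chosen on the 3 other dogs (coloured bars) and for all genes with a mean CPM of at least 2 in both tissues (grey bars). Coloured bars run from 71.4% to 94.2% and grey bars from 16.9% to 33.6%.

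Whether the members differed between tissues, with both regions weighted equally, was tested across all genes. This contrast was not used by the rule apart from the CPM limit. Of the 54 retina-down genes, 46 were higher in RPE/choroid and 5 higher in retina (edgeR quasi-likelihood test, adjusted p under 0.05). Of the 146 retina-up genes, 64 were called with more RNA in retina and 53 with more in RPE/choroid. Among the 13008 tested genes above the CPM limit, 39.5% were higher in retina and 37.8% in RPE/choroid, and among all 15577 tested genes 40.7% and 38.7%. The shares of retina-up genes in either direction were therefore near the background, while 85.2% of retina-down genes were higher in RPE/choroid.

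The median tissue log2 fold change, retina over RPE/choroid, was -1.98 for retina-down genes, 0.25 for retina-up genes and 0.02 for the 13008 genes. In size, the tissue differences of both directions were large. The median absolute log2 fold change was 1.42 for retina-up and 2.32 for retina-down genes against 0.51 for the 13008 genes. Within 2-fold were 47 of 146 and 14 of 54 members, against 69.9% of those genes. The 218 genes with the same regional direction in both tissues had a median absolute value of 1.42 as well, so large tissue differences were not limited to opposite directions. At least 4-fold higher in retina were 23 retina-up and 2 retina-down genes (5.54% of the 13008), and the same fold toward RPE/choroid was reached by 20 and 27 (8.62%).

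Of the named genes, ENSCAFG00000016480 was higher in retina with a log2 fold change of 2.40 ± 0.40 (SE, edgeR adjusted p = 1.11e-04), and ENSCAFG00000001710 with 1.31 ± 0.19 (SE, edgeR adjusted p = 2.92e-05). ENSCAFG00000015475 was higher in RPE/choroid, at -4.37 ± 0.18 (SE, edgeR adjusted p = 2.05e-10), and in each of the dogs and regions its RPE/choroid value was above its retina value. ENSCAFG00000002204 was higher in RPE/choroid at -0.77 ± 0.29 (SE, edgeR adjusted p = 0.0247). That call was lost without dog 18-2 (adjusted p = 0.0538), dog 18-6 (0.0793) or dog 18-9 (0.212, with a log2 fold change of -0.39), all by edgeR.

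**Figure D5:**
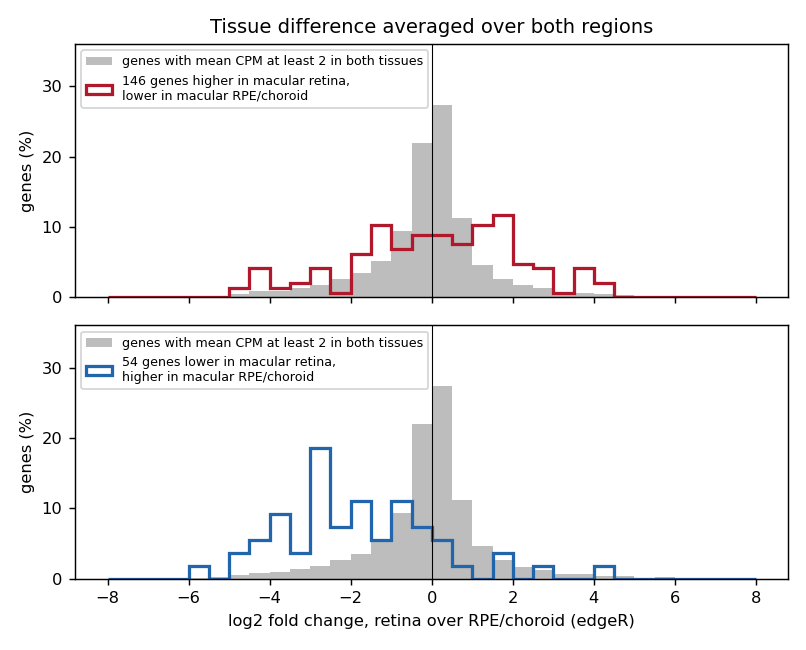
Distribution of the log2 fold change between retina and RPE/choroid, averaged over both regions, for the members (coloured outline) and for genes with a mean CPM of at least 2 in both tissues (grey), as a percentage of genes per bin. Retina-up genes spread to both sides around 0.25, and most retina-down genes lie below 0, with a median of -1.98.

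Regional differences of members were also set out by tissue preference. The 20 retina-up genes at least 4-fold higher in RPE/choroid had a median retina difference of 1.33, with medians of 1.27 and 1.55 in dogs 18-6 and 18-9 and of 0.81 and 0.80 in dogs 18-2 and 18-7. Dogs 18-6 and 18-9, which had the steep falls in RPE/choroid, thus also had the larger retina differences in this class. The 23 at least 4-fold higher in retina had a retina median of 0.66. The RPE/choroid medians of these classes were -1.15 and -1.31. The 27 retina-down genes at least 4-fold higher in RPE/choroid had medians of -0.84 in retina and 0.56 in RPE/choroid. Among members within 2-fold between the tissues, the 47 retina-up genes had medians of 0.59 in retina and -1.10 in RPE/choroid, and the 14 retina-down genes -0.56 and 1.12. The rule required these differences of every member, so only their sizes are given here.

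Because tissue of the other kind in a library could move such genes, its level was measured with 2 lists of 200 non-member genes, those with the largest tissue fold in the same fit. The retina list summed to between 9006 and 11825 CPM in retina and between 31.0 and 59.3 CPM in RPE/choroid of the first set. Its macula to periphery log2 difference in RPE/choroid was 0.86, -0.04, -0.79 and -0.15 in dogs 18-2, 18-6, 18-7 and 18-9, a mean of -0.03 ± 0.68 (SD, n = 4 pairs, higher in 1 of 4 dogs, exact two-sided sign-flip permutation p = 0.875, adjusted p = 0.875 over the 4 tests of this family). The part of retinal RNA in the RPE/choroid differences was not tested. The RPE/choroid list summed to between 8123 and 11749 CPM in RPE/choroid and between 56.3 and 208 CPM in retina, where its regional difference averaged -0.29 ± 0.86 (SD, n = 4 pairs, higher in 1 of 4 dogs, exact permutation p = 0.625, adjusted 0.833). Within its own tissue, each list was higher in the macula in 4 of 4 dogs, by 0.24 ± 0.10 for the retina list and 0.28 ± 0.12 for the RPE/choroid list (SD, n = 4 pairs). The exact two-sided permutation p was 0.125 for both, the smallest that 4 pairs allow, with an adjusted p of 0.25 over 4 tests.

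Relative to the other tissue of the same dog and region, the retina list stood at 0.292% to 0.582% in RPE/choroid and the RPE/choroid list at 0.597% to 2.19% in retina. Expression of the list genes by the receiving tissue itself would raise these shares, and choosing the lists for their tissue fold in the same libraries would lower them. When the other tissue was subtracted at these shares, 145 of 146 retina-up genes and 51 of 54 retina-down genes still met the rule, in a calculation added after the data had been seen. All 8 signs were kept by 145 and 53, and the median differences became 0.70 and -1.24, and -0.71 and 0.68. This calculation uses the values that chose the members and is a description, and the part of carried-over tissue was not tested. In the second set the retina list was at 428 and 87.7 CPM with the retina on and off in dog 1, 22.5 and 76.3 CPM in dog 2, and 33.9 and 22.2 CPM in dog 3. Its on minus off sign was the same as that of the steep block in all 3 dogs, while the sizes had another order: the list moved most in dog 1, where the block moved least. The part of retinal RNA in the second-set shifts was not tested.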

How the data were processed

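The deposited files held raw read counts made by the authors, as whole numbers per Ensembl gene identifier, for 22 libraries. Tools listed in the submitters' processing notes are featureCounts 2.0.0, HISAT2 2.1.0, SAMtools, Trimmomatic 0.39 and FastQC 0.11.8, without roles. Build, annotation and strand setting: not given in the sources used here, so values of overlapping or duplicated genes are uncertain. CPM was scaled by total counts.

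Groups and dogs came from the sample titles. The tissue contrast (16 libraries, mean of both regions) and retina on against off (6 libraries) were fitted over all genes with edgeR 4.0.16 (glmQLFit, glmQLFTest) in R 4.3.3, with TMM, filterByExpr, dog as a block and Benjamini-Hochberg adjusted p under 0.05. DESeq2 1.42.0 was an alternative. The fits were tested on simulated data with known fold changes. Standard errors came from the fold change and the F statistic. Same-dog libraries are from the same animal. Correlations of their deviations from group means ran from -0.108 to 0.594 in the first set (18 of 24 above 0.1) and from -0.125 to 0.638 in the second (2 of 3). In the second set the value was -0.125 for the eyes of dog 2, 0.638 for dog 1 and 0.477 for dog 3. No 2 libraries of a group agreed within counting noise. Members, lists and tests were chosen with earlier results of these data known. Planned lists of named genes and all promoter and protein descriptions need symbols and were not used. The naming rule fell back to the 2 identifiers per direction with the largest smallest absolute d.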

Additional observations from a re-analysis of the deposited data

Results flagged for a closer look

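Of 38 groups of 4 values checked with Dixon's test at the 95% level, 2 had a value far from the others, where chance flags about 1 in 20. ENSCAFG00000015475 had 341.4 CPM in macular RPE/choroid of dog 18-6, and its 3 other macular values lay between 197 and 207 CPM. The peripheral value of dog 18-6, at 175 CPM, was the highest peripheral one as well, so that the regional difference of that dog (0.96) was like those of the others (0.88 to 1.14).

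The RPE/choroid list summed to 208.1 CPM in peripheral retina of dog 18-9, and to between 59.3 and 74.4 CPM in the 3 other dogs. For the 27 retina-down genes at least 4-fold higher in RPE/choroid, the median retina difference was -0.84, -0.74, -0.81 and -0.78 in dogs 18-2, 18-6, 18-7 and 18-9. The part of the list level in these differences was not tested.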

How the results depend on the processing

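Under the rule, 297 retina-up and 203 retina-down genes passed at a limit of 0.1, and 43 and 16 at 0.4. With a mean CPM of at least 10 in both tissues, 107 retina-up genes passed. Leaving out 1 dog gave 86 to 154 retina-down and 190 to 254 retina-up genes. TMM and RLE library sizes moved the median of all genes in RPE/choroid of dog 18-6 by -0.15 and -0.18. Under both, all 146 and 54 members kept all 8 signs. No member had an absolute d below 0.231, which is more than these shifts, so nothing is read from the kept signs. The rule was still met by 145 of the 146 and 49 of the 54 with TMM, and by 145 and 52 with RLE.

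The tissue calls of retina-up genes were 59 and 54 without the replicate block, and of retina-down genes 5 and 46. In the periphery alone, 34 retina-up and 9 retina-down genes were called higher in retina, and in the macula alone 16 retina-up genes were called higher in RPE/choroid. The single-region fits use the contrasts that chose the members, and shares over all genes are not given for them. Nothing is read from these counts. In the periphery alone the log2 fold change was -0.024 for ENSCAFG00000016480, -0.0041 for ENSCAFG00000001710 and 0.91 for ENSCAFG00000002204, opposite in sign to the fit over both regions and not past the threshold (edgeR adjusted p = 0.964, 0.990 and 0.0516). Retina on against off called 0 to 1 members with 1 dog left out. In total, 77 of 89 alternatives of the main counts kept them within 1.5 times. The promoter alternative was not run. Depth limits the low members: 51 retina-up and 10 retina-down genes had fewer than 10 counts in at least 1 of the 16 libraries, and 12 of the 200 had too few for the retina on against off fit.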
